A study of Mus musculus with 5 samples.

Results

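Acta2, Tagln, Myh11, Myl9, Cnn1, Tpm1, Tpm2 and Actg2 encode proteins of the contractile apparatus of smooth muscle, and all 8 were measured among the 18783 genes of the authors' deposited table. They were chosen by their gene symbols, as genes of this apparatus, with the group means and log2 ratios of these libraries already known. Those measured values therefore chose the members, and their means, ratios and p-values are given as a description and not as independent evidence of a change.

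RNA was sequenced from primary astrocyte cultures of newborn C57BL/6 mouse pups, all harvested on day 12 in vitro and all grown in medium with horse and fetal bovine serum. The Aβ+DFMO cultures (1 library) received 1 µM amyloid-β peptide (Aβ) together with 50 µM DFMO from day 7 for 5 days. The Aβ cultures (2 libraries) received the same dose of the peptide over the same time without DFMO, and the Control cultures (2 libraries) were left untreated. DFMO is difluoromethylornithine, which irreversibly blocks ornithine decarboxylase and so the making of putrescine from ornithine. The labels do not say whether libraries came from separate cultures or how many pups were pooled, and a group given DFMO alone was not analysed here.

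In smooth muscle, the force is made by a smooth muscle myosin pulling on filaments of smooth muscle actin, and it is switched on when the regulatory light chain of the myosin is phosphorylated. Tropomyosins lie along the actin filament, and calponin and transgelin bind it and stabilise it. Many of these genes are transcribed under serum response factor (SRF) and its partners of the myocardin family, through a DNA element called the CArG box, and they are known markers of myofibroblasts and pericytes as well as of vascular smooth muscle.

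Since transcription of the family is known to run through this element, the promoter windows of the members were searched for it. RefSeq sequences on GRCm38.p6, running from 250 bases before to 50 bases after the gene start, matched 5 of the 8 genes: Acta2, Myl9, Cnn1, Tpm1 and Tpm2. The start meant here is the one on which each window is set. It differs from the gene boundary given further on, which for Acta2 is 34255590, so distances hold for the window start only. Tagln, Myh11 and Actg2 are named only. Shown are Acta2 (chr19:34255324-34255623, minus strand), Myl9 (chr2:156775214-156775513, plus strand) and Tpm2 (chr4:43523505-43523804, minus strand), an actin, a light chain and a tropomyosin gene that were each higher in the Aβ+DFMO library. Each runs 5′ to 3′, with capitals marking a CArG box or a form of it that differs by 1 base.
Acta2: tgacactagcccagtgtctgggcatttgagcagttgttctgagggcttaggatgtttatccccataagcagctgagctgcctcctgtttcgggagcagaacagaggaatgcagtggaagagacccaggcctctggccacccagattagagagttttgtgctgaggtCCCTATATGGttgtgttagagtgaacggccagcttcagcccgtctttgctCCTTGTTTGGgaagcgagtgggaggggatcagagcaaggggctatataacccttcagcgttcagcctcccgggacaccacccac
Myl9: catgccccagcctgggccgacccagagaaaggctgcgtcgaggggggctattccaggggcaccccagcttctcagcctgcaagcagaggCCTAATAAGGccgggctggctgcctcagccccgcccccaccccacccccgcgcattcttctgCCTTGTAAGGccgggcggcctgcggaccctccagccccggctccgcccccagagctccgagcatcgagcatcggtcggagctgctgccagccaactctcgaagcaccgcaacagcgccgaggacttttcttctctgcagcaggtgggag
Tpm2: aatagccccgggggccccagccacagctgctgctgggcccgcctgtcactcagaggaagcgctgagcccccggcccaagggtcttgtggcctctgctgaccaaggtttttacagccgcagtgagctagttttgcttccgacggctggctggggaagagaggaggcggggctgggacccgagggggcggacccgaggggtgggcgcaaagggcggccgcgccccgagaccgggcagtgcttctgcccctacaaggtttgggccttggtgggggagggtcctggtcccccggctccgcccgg
The strict CArG box, which is CC, then 6 bases that are each A or T, then GG, reads the same way on both strands. The Myl9 window held 1 of them, CCTAATAAGG, which starts 161 bases before the gene start. It also held 1 box with a single G or C among the 6 middle bases, CCTTGTAAGG, 99 bases before the start. The Acta2 window held no strict box and 2 of the relaxed form, CCCTATATGG at 84 bases and CCTTGTTTGG at 34 bases before the start. The windows of Cnn1, Tpm1 and Tpm2 held neither form, which says only that these letters are not in these windows. Of 32851 promoter windows of the same length, 1.63% held a strict box, 8.50% held the relaxed form and 0.679% held the relaxed form at least 2 times.

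Every value per gene is a normalized group mean from the authors' deposited table, so the Aβ+DFMO value is that of the lone library, and the Aβ and Control values have no spread of their own. The Aβ+DFMO library had 4825677 reads. The other libraries had 9.72 to 21.9 times more, with 46886111 and 105544237 reads in Aβ, and 49020833 and 49676004 reads in Control. Dividing the Aβ+DFMO values by 7.466 units, the step at which 80.5% of its 7317 low values came out whole within 0.05 of a read, gave estimated reads per gene, and by that estimate the members rested on 47.9 reads (Myh11) to 10851 reads (Acta2). All 10 astrocyte markers listed for the label were measured, with Gfap, the glial intermediate filament, at 41383 normalized units in Aβ+DFMO, 57495 in Aβ and 57209 in Control.

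The level of the contractile genes was compared per kilobase of the longest coding transcript, so that long and short genes share a scale. Acta2, the α-actin of vascular smooth muscle, stood highest of the 8, at 39810 units per kb in Aβ+DFMO, 32749 in Aβ and 32288 in Control. Among 14509 genes with a coding transcript these levels ranked 19 in Aβ+DFMO, 27 in Aβ and 26 in Control. In each of the 3 groups Acta2 lay above the astrocyte marker Gfap, which stood at 15628 units per kb in Aβ+DFMO, 21713 in Aβ and 21605 in Control. Tagln, which encodes transgelin, followed with 29899 units per kb in Aβ+DFMO, 29949 in Aβ and 29668 in Control.

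Myl9 and Tpm1 formed the next step down. Myl9, the regulatory light chain of smooth muscle myosin, had 11073 units per kb in Aβ+DFMO, 8690 in Aβ and 8591 in Control. Tpm1, the α-tropomyosin gene, had 11016 units per kb in Aβ+DFMO, 7891 in Aβ and 7601 in Control. Tpm2, the β-tropomyosin gene, stood at 3142, 2245 and 2301 units per kb in these 3 groups in the same order, and Cnn1, which encodes calponin, at 2595, 2353 and 2435. Tpm2 therefore lay above Cnn1 in Aβ+DFMO and below it in Aβ and in Control. Actg2, the γ-actin of enteric smooth muscle, reached 1409 units per kb in Aβ+DFMO, 721.6 in Aβ and 655.0 in Control. Myh11, the smooth muscle myosin heavy chain, was lowest of the 8 at 54.6 units per kb in Aβ+DFMO, 21.1 in Aβ and 16.4 in Control. The apparatus was thus measured with abundant actin, transgelin, light chain and tropomyosin mRNA and with little mRNA of its own heavy chain. Whether neighbours in this order differ beyond their spread cannot be said from group means.

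**Figure D1:**
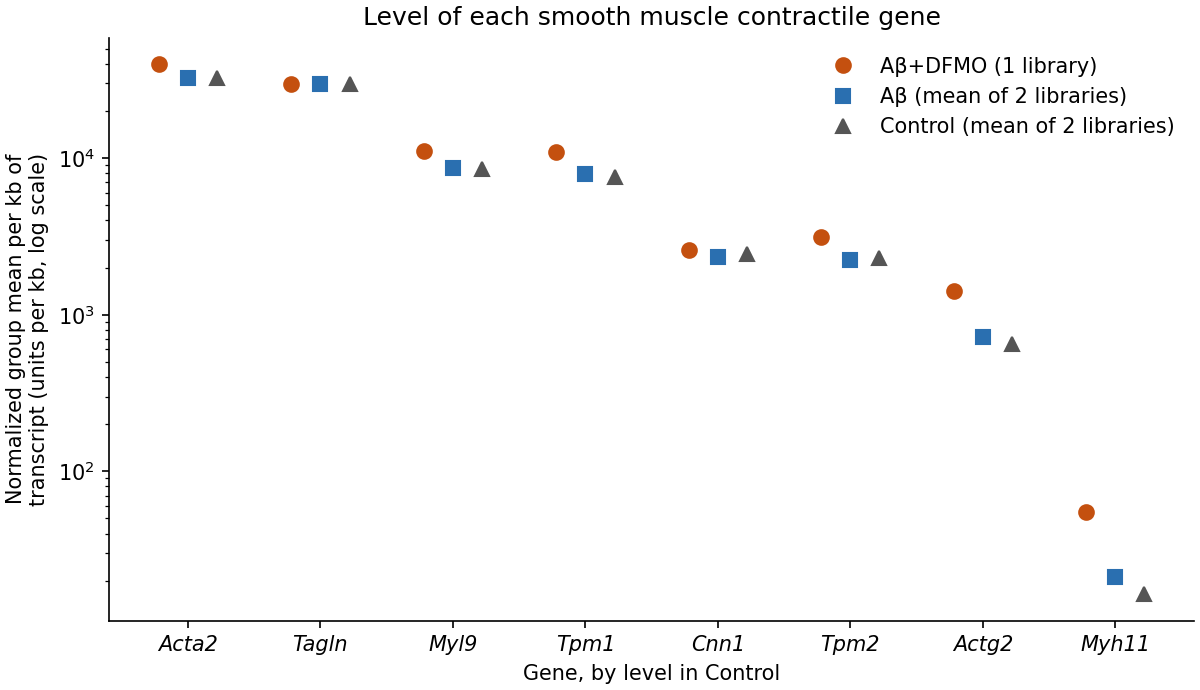
Normalized group mean per kb of the longest coding transcript (vertical axis, log scale) for the 8 genes in Aβ+DFMO (1 library), Aβ and Control (means of 2 libraries each). Acta2 and Tagln stand highest, at 39810 and 29899 units per kb in Aβ+DFMO, and Myh11 lies lowest, at 54.6 units per kb in Aβ+DFMO against 21.1 in Aβ and 16.4 in Control.

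Addition of DFMO to Aβ was compared with Aβ alone. The genes of actin, myosin and tropomyosin were higher in the Aβ+DFMO library: 6 of the 8 members passed an adjusted p under 0.05 in the authors' DESeq2 table, all 6 upwards, while Cnn1 and Tagln did not. Over all 18783 genes, 9.18% passed in either direction and 4.0% passed upwards, and 5.58% passed upwards among genes whose mean in Aβ was 100 or more, a level that all 8 members exceed. The median log2 ratio of the 8 members was 0.42, beside 0.01 over all genes and −0.03 over those at 100 or more in Aβ. As the members were chosen with these values known, nothing is read from the difference. In bulk RNA, more cells that express these genes and more of their RNA per cell cannot be told apart.

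Of the actins, Acta2 had a mean of 81013 normalized units in Aβ+DFMO, against 66644 in Aβ, and rose 1.22-fold by the authors' deposited table (log2 ratio of 0.28, implied standard error 0.0844, DESeq2 adjusted p = 0.0149). The implied standard error is the one that the authors' log2 ratio and p-value entail if the test was a Wald test. Actg2 had 1878 units in Aβ+DFMO and 962 in Aβ, a rise of 1.95-fold by the authors' deposited table (log2 ratio of 0.97, implied standard error 0.212, DESeq2 adjusted p = 0.000346). The rarer of the 2 smooth muscle actins thus had the larger ratio, and their implied 95% intervals, 0.55 to 1.38 for Actg2 and 0.12 to 0.45 for Acta2, do not overlap.

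Of the myosin subunits, the authors' deposited table gave the heavy chain gene Myh11 a mean of 358 units in Aβ+DFMO and 138 in Aβ, a rise of 2.59-fold (log2 ratio 1.37, implied standard error 0.376, DESeq2 adjusted p = 0.00652). This is the largest ratio of the 8 and the one with the widest implied 95% interval, 0.64 to 2.11, on an estimated 47.9 reads. The light chain gene Myl9 had 12490 units in Aβ+DFMO and 9803 in Aβ, a rise of 1.27-fold by the authors' deposited table (log2 ratio of 0.35, implied standard error 0.0986, DESeq2 adjusted p = 0.00877).

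Both tropomyosin genes rose by nearly the same ratio. Tpm1 had 31837 units in Aβ+DFMO and 22806 in Aβ, a log2 ratio of 0.48 in the authors' deposited table (implied standard error 0.0890, DESeq2 adjusted p = 8.76e-06). Tpm2 had 6834 units in Aβ+DFMO and 4883 in Aβ, a log2 ratio of 0.48 in the authors' deposited table (implied standard error 0.109, DESeq2 adjusted p = 0.000507). Tpm1 has 21 annotated transcripts that serve muscle and non-muscle cells, and the value per gene merges them, so the ratio is not that of the smooth muscle isoform.

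The actin-binding regulators Cnn1 and Tagln had the smallest ratios. Cnn1 had 6178 units in Aβ+DFMO and 5603 in Aβ, a log2 ratio of 0.14 with an implied 95% interval of −0.07 to 0.35 in the authors' deposited table (DESeq2 adjusted p = 0.518). For Tagln the authors' deposited table gave 47688 units in Aβ+DFMO and 47769 in Aβ, a log2 ratio of −0.0024 with an implied interval of −0.17 to 0.17 (DESeq2 adjusted p = 0.995). Sizes inside these intervals are not told from 0 by this test, so the genes are not shown to be unaffected. In the order of the 8 ratios, only the step between Actg2 and Tpm2, 0.48 on the log2 scale, exceeded 1.96 times the combined implied standard error of 0.238, and the other 6 steps between neighbours did not. Each ratio with Aβ+DFMO rests on 1 shallow library, which the authors' model had to assume to vary like the others.

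**Figure D2:**
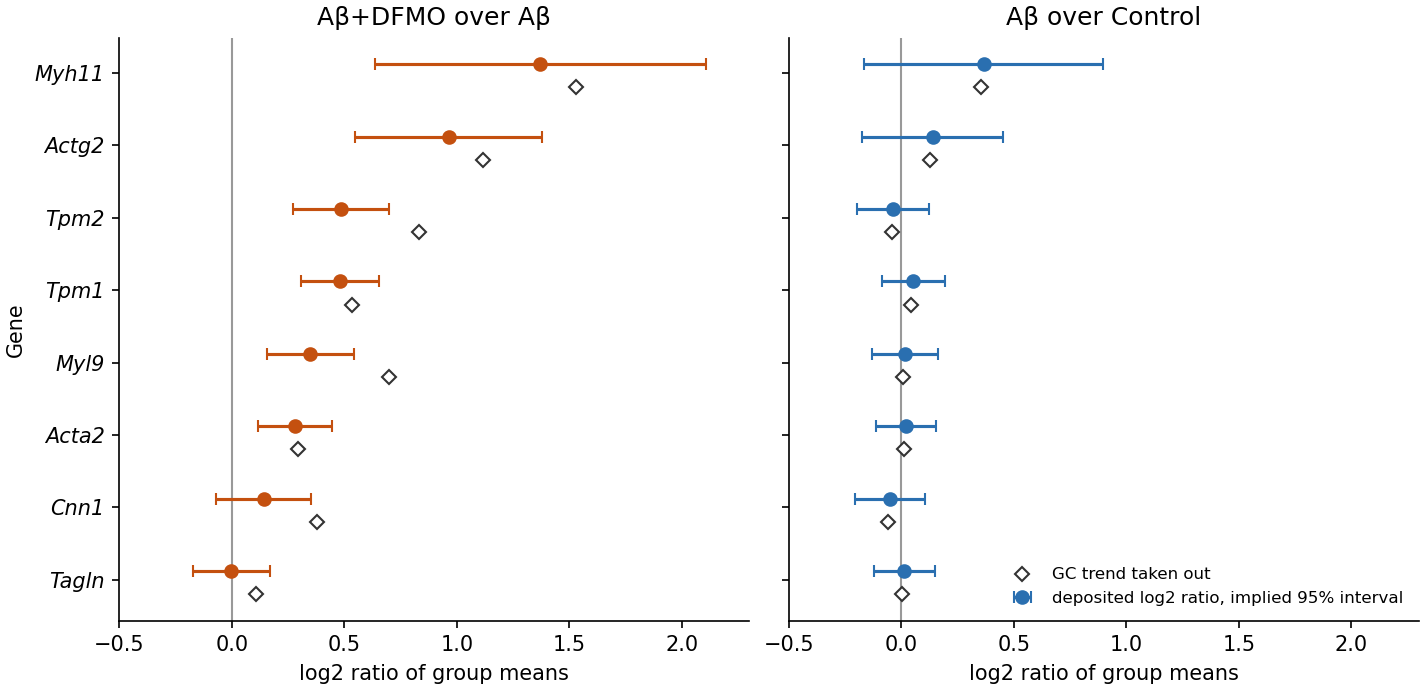
Deposited log2 ratios of the 8 genes with implied 95% intervals (filled circles) and the same ratios with the trend on GC content taken out (open diamonds), for Aβ+DFMO over Aβ (left) and Aβ over Control (right). On the left, the intervals of all genes but Cnn1 and Tagln lie above 0; on the right, every interval includes 0.

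The log2 ratio of Aβ+DFMO over Aβ followed the GC content of the transcript throughout the table. Spearman's rho was −0.70 for this ratio, against 0.09 for Aβ over Control, across the 11660 genes at 200 units or more in Aβ; genes are not independent replicates. The contractile genes lie on the GC-rich side, where the smoothed trend through these genes is below 0. Their transcripts are 50.2% (Acta2) to 56.6% (Myl9 and Tpm2) GC, and the trend gives log2 ratios of −0.01 at the GC content of Acta2 and −0.35 at that of Myl9 and of Tpm2. All 8 members lay above the trend. With the trend subtracted and the implied standard error kept, 7 of the 8 passed upwards, beside 1.11% of the 18459 genes with a GC value. This reckoning uses the same ratios that were known when the members were chosen. Nothing is therefore read from that difference, and the p-values below are no independent support. They also leave out the error of the trend itself.

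Tpm2 then had a log2 ratio of 0.83 (adjusted p = 3.68e-11 from the implied standard error with Benjamini-Hochberg adjustment) and Myl9 one of 0.70 (adjusted p = 1.29e-09 by the same method). The ratios of Acta2 and Tpm1, near the middle of the GC range, hardly moved, to 0.29 and 0.53. Myh11 stood at 1.53 and Actg2 at 1.12. Cnn1 reached 0.38 and passed in this reckoning (Benjamini-Hochberg adjusted p = 0.0287), but not when GC content was read from the longest coding transcript alone, where 6 members passed. Tagln stood at 0.11 and did not pass (Benjamini-Hochberg adjusted p = 0.868).

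**Figure D3:**
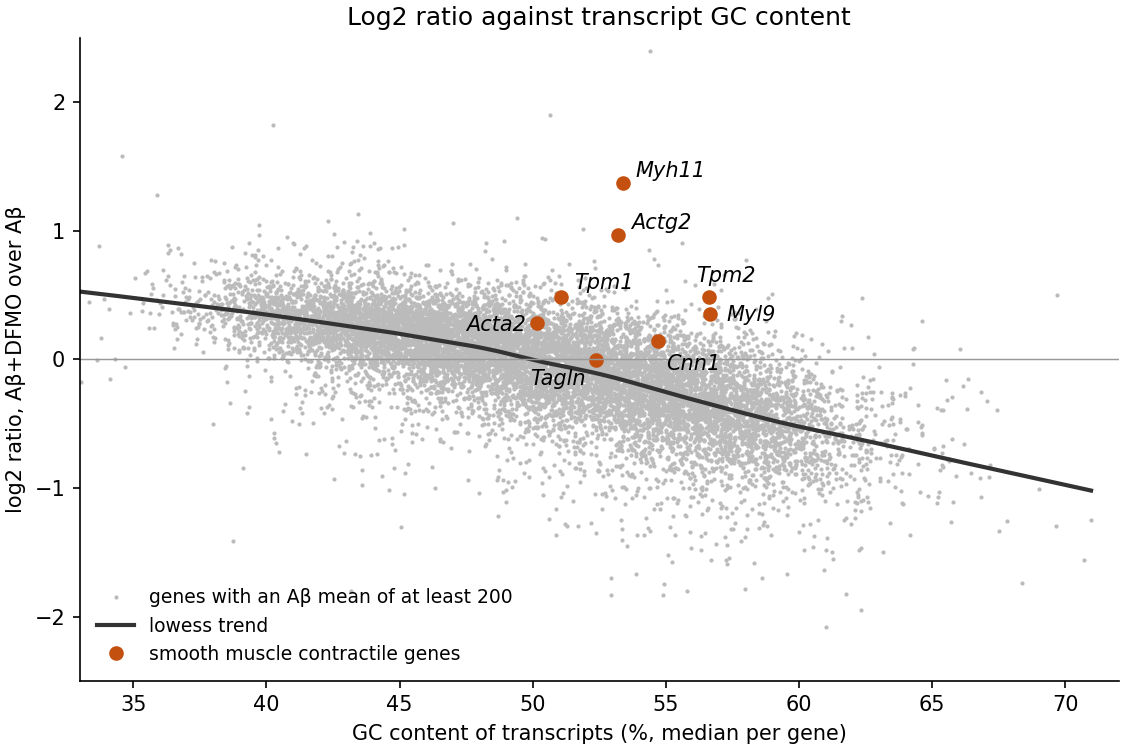
Log2 ratio of Aβ+DFMO over Aβ (vertical axis) against the GC content of each gene's transcripts in percent (horizontal axis), with 1 grey point per gene at 200 units or more in Aβ and the smoothed trend as a line. The 8 contractile genes (large points) lie between 50.2% and 56.6% GC and all above the line, with Tagln nearest to it, 0.11 above it on the log2 scale.

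Tagln differs from the other 7 genes in how its reads can be assigned. The gene lies on chromosome 9 at 45929619 to 45936058 on the minus strand of GRCm38, and the annotated antisense gene Gm48529, at 45930112 to 45933738 on the plus strand, overlaps 62.4% of its 1988 exonic bases. Of the 1521 windows of 75 bases in the longest Tagln transcript, 588 (38.7%) also occur in Gm48529 and 34 in its neighbour Pcsk7, whereas the other 7 members share no such window with another gene. The sources used here do not say whether counting used strand, so reads from the bases that the antisense gene and Tagln share cannot be told apart. The other windows of that transcript do not occur whole in Gm48529. As the counting is not described, this does not show that their reads were assigned without it. In the authors' deposited table Gm48529 had 6326 units in Aβ+DFMO and 4186 in Aβ and rose (log2 ratio 0.60, DESeq2 adjusted p = 8.67e-06), while Tagln did not pass. The sum of both was 54015 units in Aβ+DFMO, 51955 in Aβ and 51611 in Control, a log2 ratio of 0.06 for Aβ+DFMO over Aβ. Gm48529 and Pcsk7 were named for this overlap, after their values were seen.

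The other members lie apart on the genome, except that 3 share chromosome 9. On GRCm38, Acta2 lies on chromosome 19 at 34241090 to 34255590 (minus strand), Actg2 on chromosome 6 at 83512905 to 83536265 (minus) and Myh11 on chromosome 16 at 14194535 to 14291372 (minus). Myl9 lies on chromosome 2 at 156775420 to 156781658 (plus) and Tpm2 on chromosome 4 at 43514711 to 43523765 (minus). Cnn1, at 22099216 to 22109630 (plus), and Tpm1, at 67022590 to 67049406 (minus), are on chromosome 9 with Tagln but do not adjoin it.

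Aβ alone was compared with untreated cultures. None of the 8 contractile genes passed, and their levels in Aβ lay close to those in Control: the log2 ratios ran between −0.05 for Cnn1 and 0.37 for Myh11 in the authors' deposited table, with a median of 0.02 beside 0.00 over all genes. By the authors' DESeq2 test 0 of the 8 passed at an adjusted p under 0.05 and 0 at an unadjusted p under 0.05, where 0.287% of all genes (54) passed after adjustment and 324 before it. The 2 Aβ libraries serve in this comparison and in that of Aβ+DFMO, so the ratios of a gene in both share those libraries.

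The actins had 66644 units for Acta2 in Aβ and 65706 in Control (log2 ratio 0.02, implied 95% interval −0.11 to 0.15 from the authors' deposited table), and 962 units for Actg2 in Aβ and 873 in Control (0.14, −0.17 to 0.45). Myh11 had 138 units in Aβ and 107 in Control in the authors' deposited table (0.37, −0.17 to 0.90), and Myl9 had 9803 in Aβ and 9691 in Control (0.02, −0.13 to 0.17). The tropomyosins had 22806 units for Tpm1 in Aβ and 21967 in Control (0.05, −0.08 to 0.19), and 4883 for Tpm2 in Aβ and 5005 in Control (−0.04, −0.20 to 0.12), in the authors' deposited table. Cnn1 had 5603 units in Aβ and 5797 in Control (−0.05, −0.20 to 0.11), and Tagln 47769 in Aβ and 47320 in Control (0.01, −0.12 to 0.15), in the authors' deposited table. For the 6 abundant genes the bounds lie between −0.20 and 0.19 on the log2 scale, and those of Actg2 and Myh11 are wider. No step between neighbours in the order of these ratios exceeded 1.96 times its combined implied standard error.

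Aβ+DFMO was set against Control only by ratios of the group means, which carry no error and no test. Myh11 was 3.33-fold and Actg2 2.15-fold higher in Aβ+DFMO than in Control. Tpm1 was 1.45-fold, Tpm2 1.37-fold, Myl9 1.29-fold and Acta2 1.23-fold higher, and Cnn1 and Tagln were at 1.07-fold and 1.01-fold of Control. The median log2 ratio of the 8 was 0.41, beside 0.02 over all genes. Summed over the 8 genes, the normalized signal was 188275 units in Aβ+DFMO, 158608 in Aβ and 156465 in Control.

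The contractile proteins each have non-muscle relatives that build the cytoskeleton of other cells, and these offer a comparison within each family. Of 14 non-muscle paralogs, 2 passed upwards in Aβ+DFMO against Aβ and 2 downwards in the authors' DESeq2 table, with a median log2 ratio of 0.01. The shares over all genes were 4.0% upwards and 9.18% in either direction. The light chain Myl12a (0.40) and the tropomyosin Tpm4 (0.38) rose, and the β-actin gene Actb (−0.29) and the non-muscle myosin Myh14 (−0.60) fell in the authors' deposited table. Once the GC trend was subtracted, only Myl12a passed (0.38), Actb turned to 0.23 and Myh14 stood at −0.04, so the fall of both rests on the trend being left in. Of the 18459 genes with a GC value, 1.11% then passed upwards. The other 10 paralogs did not pass, with log2 ratios from −0.09 (Cnn2, Tagln2 and Tagln3) through −0.05 (Tpm3), 0.05 (Myl12b), 0.06 (Myh9 and Cnn3) and 0.11 (Myl6) to 0.29 (Myh10) in the authors' deposited table.

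In the actin family, the log2 ratio of Acta2 exceeded that of Actb by 0.57 as deposited but by 0.07 with the GC trend taken out, while that of Actg2 exceeded Actb by 1.25 and by 0.89. Actg1, the cytoplasmic γ-actin, had a log2 ratio of −0.02 in the authors' deposited table. Myh11 exceeded its non-muscle counterpart Myh9 by 1.31 as deposited and by 1.10 without the trend. The pair Tpm1 and Tpm3 differed by 0.53 and 0.54 in these 2 reckonings. Against Myl12a, Myl9 was 0.05 lower as deposited but 0.32 higher without the trend, and against Tagln2, Tagln was 0.09 higher as deposited and 0.14 lower without it. Of the pairs computed, the sign turned with the GC trend only for Myl9 with Myl12a and for Tagln with Tagln2, and these differences were not tested.

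**Figure D4:**
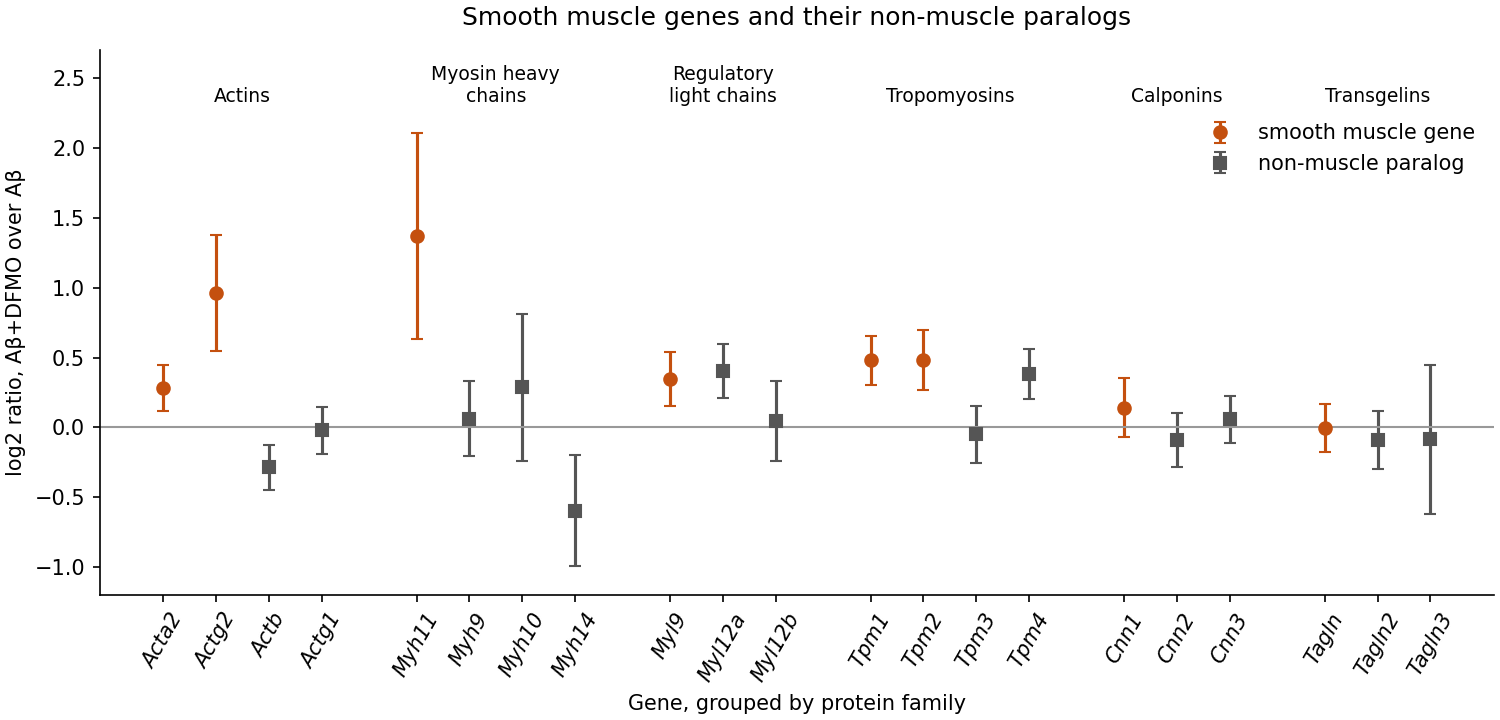
Deposited log2 ratio of Aβ+DFMO over Aβ with its implied 95% interval for each smooth muscle gene (circles) and its non-muscle paralogs (squares), grouped by protein family. Myh11 and Actg2 stand above all of their paralogs, with log2 ratios of 1.37 and 0.97, whereas Myl9 (0.35) and Myl12a (0.40) lie together.

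As shares of the level per kb of their families, the smooth muscle actin and myosin took more of the total in Aβ+DFMO. Acta2 made up 31.6% of 6 actin genes in Aβ+DFMO, 25.2% in Aβ and 24.8% in Control, and Actb 40.7%, 48.1% and 49.3% in the same groups. Actg2 made up 1.12% of the actins in Aβ+DFMO, 0.555% in Aβ and 0.504% in Control. Myh11 was 0.966% of 4 myosin heavy chain genes in Aβ+DFMO, 0.423% in Aβ and 0.368% in Control, so that non-muscle heavy chains accounted for nearly all of the family in every group. Tpm1 was 38.4% of 4 tropomyosin genes in Aβ+DFMO, 35.6% in Aβ and 34.6% in Control. Tagln was 87.8% of the transgelins in Aβ+DFMO, 87.2% in Aβ and 86.9% in Control, and Myl9 was 60.9% of 3 regulatory light chain genes in Aβ+DFMO, 60.9% in Aβ and 61.6% in Control. These shares have no error and keep the GC trend in.

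The rest of the contractile machinery moved in part with the 8 genes. Of 18 other genes of the apparatus, 5 rose in Aβ+DFMO against Aβ and none fell in the authors' DESeq2 table, with a median log2 ratio of 0.30. The shares over all genes were 4.0% upwards and 9.18% in either direction. The 5 were Cald1, which encodes the actin-binding caldesmon (0.74), Nexn (0.72) and Filip1l (0.69), which encode filament-associated proteins, and Vcl and Palld, which encode the adhesion proteins vinculin (0.48) and palladin (0.41), in the authors' deposited table. Cald1 had 60572 units in Aβ+DFMO, 36289 in Aβ and 36699 in Control. With the GC trend taken out, again 5 passed upwards, with Lmod1 (0.56) and Actn1 (0.46) in place of Nexn and Filip1l. Of the 18459 genes with a GC value, 1.11% then passed upwards. The list was chosen with earlier results of these data known, so nothing is read from these differences. Des, the desmin gene, was named after its value was seen: it had 14.9 units in Aβ+DFMO, about 2 reads, 24.6 in Aβ and 24.1 in Control.

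None of the 12 listed genes of the SRF axis passed upwards in Aβ+DFMO against Aβ, and 2 of them rested on fewer than 10 estimated reads. The counts in this paragraph are not read as a result about the axis. Over all genes, 4.0% passed upwards and 9.18% in either direction. Of 12 genes of the SRF axis, none rose and 1 fell in Aβ+DFMO against Aβ, Mrtfa, the actin-regulated SRF partner (−0.68, DESeq2 adjusted p = 0.0364 in the authors' deposited table), and it no longer passed with the GC trend taken out (−0.22). Srf itself, named after its value was seen, had 693 units in Aβ+DFMO, 987 in Aβ and 1043 in Control (log2 ratio −0.51 over Aβ, DESeq2 adjusted p = 0.107 by the authors' deposited table) and stood at 0.10 once the GC trend was subtracted. Myocd, which encodes myocardin and was also named after its value was seen, rested on about 5 reads in Aβ+DFMO.

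In the RhoA pathway, which keeps the light chain phosphorylated, 3 of 15 genes rose and 1 fell. Over all genes in Aβ+DFMO against Aβ, 4.0% passed upwards and 9.18% in either direction. With the GC trend taken out, 1.11% passed upwards. The counts in this paragraph are not read as a result about a pathway. The kinase genes Rock1 (0.50) and Rock2 (0.58) and the myosin phosphatase subunit Ppp1cb (0.50) rose in the authors' DESeq2 table, and the small GTPase gene Rhoc (−0.44) fell. Only Ppp1cb passed with the GC trend taken out (0.43). Of 12 target genes of MRTF and YAP outside contraction, 3 rose and none fell: the matrix gene Thbs1 (0.50), the LIM protein gene Fhl2 (0.71) and the kinase gene Lats2 (0.47), in the authors' DESeq2 table. All 3 passed again with the GC trend taken out, and Amotl2 (0.64) with them. Of 14 genes of the TGF-β pathway, a known inducer of Acta2, only Skil (0.51), an inhibitor of SMAD proteins, rose and none fell in the authors' DESeq2 table; with the GC trend taken out it was only the ligand gene Tgfb3 (0.52).

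**Figure D5:**
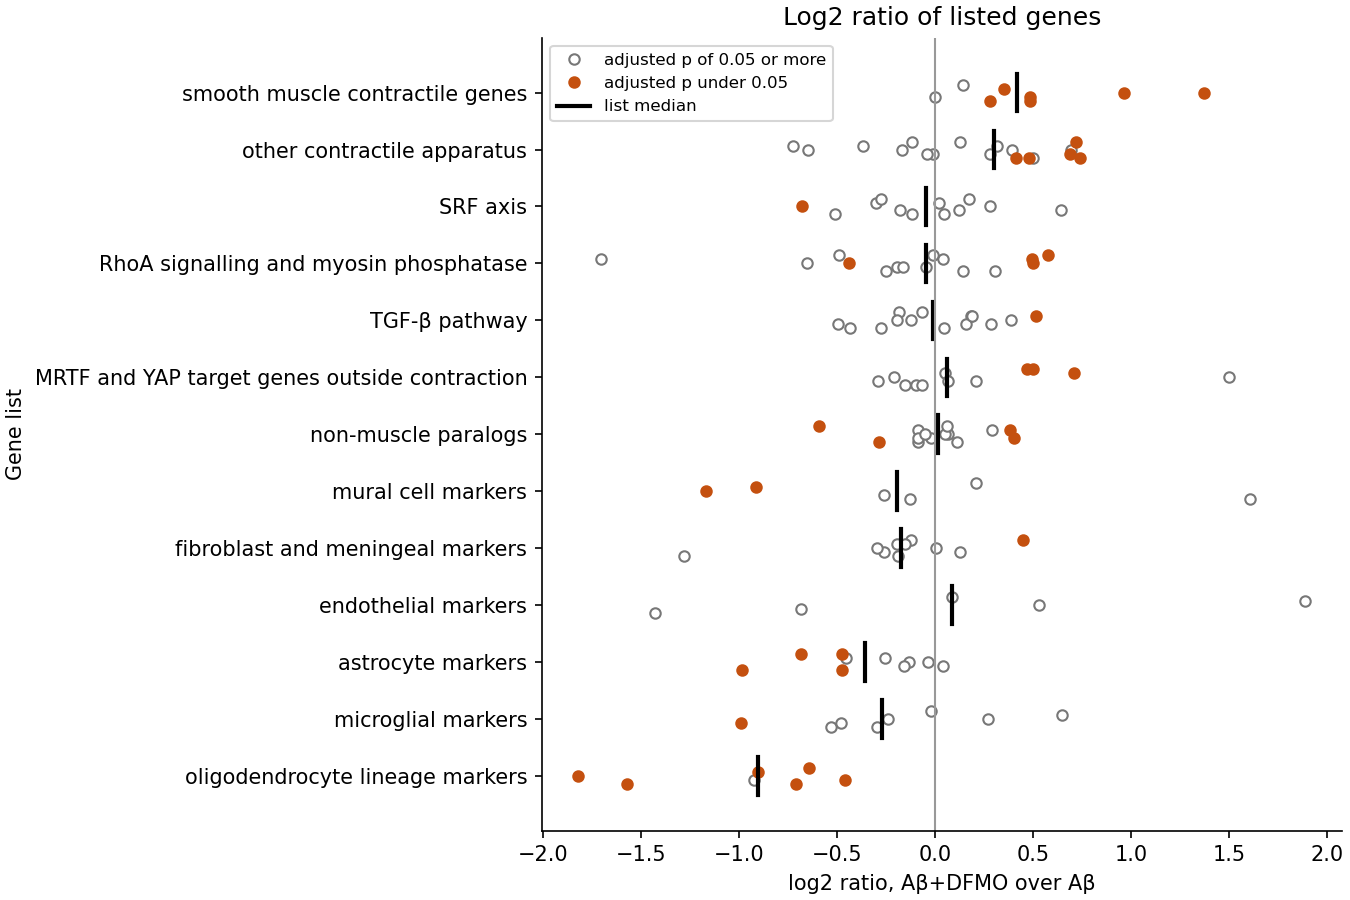
Log2 ratio of Aβ+DFMO over Aβ (horizontal axis) for each measured gene of the contractile genes, of related gene lists and of cell type marker lists, filled where the adjusted p was under 0.05, with the list median as a bar. Medians are 0.42 for the 8 contractile genes, 0.30 for the other contractile apparatus and −0.05 for the SRF axis.

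Cells other than astrocytes that could hold contractile genes were followed by their markers. Over all genes in Aβ+DFMO against Aβ, 4.0% passed upwards and 9.18% in either direction. With the GC trend taken out, 1.11% passed upwards. Of 10 mural cell markers 6 were measured, none of them at 0, and their summed level was 8070 units in Aβ+DFMO, 8781 in Aβ and 8476 in Control. In Aβ+DFMO against Aβ, none rose and 2 fell in the authors' DESeq2 table: Cspg4 (−1.17), which is also a gene of oligodendrocyte progenitors, and Notch3 (−0.92), a receptor of mural cells. With the GC trend taken out neither passed and Mcam did, upwards (0.46). Mcam made up 4755 units of the summed level in Aβ+DFMO. Only 2 of the 6 deposited log2 ratios were above 0. The median of the 6 was −0.20 as deposited and −0.12 with the GC trend taken out, and 1 of them rested on fewer than 10 estimated reads. All 10 fibroblast and meningeal markers were measured, and their sum was 52122 units in Aβ+DFMO, 55943 in Aβ and 50052 in Control. Of these, Postn, a matrix protein gene, rose (0.45) and none fell in the authors' DESeq2 table, and with the GC trend taken out the collagen gene Col1a2 rose (0.55) and Postn did not pass (0.23). Only 3 of the 10 deposited log2 ratios were above 0. The median of the 10 was −0.17 as deposited and 0.04 with the GC trend taken out, and 2 of them rested on fewer than 10 estimated reads.

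Some markers of glia were lower in Aβ+DFMO, most of those of the oligodendrocyte lineage and fewer of the others. Among all 18783 genes, 973 passed downwards in Aβ+DFMO against Aβ in the authors' DESeq2 table, and 33 in Aβ against Control. After the GC trend was subtracted, 138 of the 18459 genes with a GC value passed downwards in Aβ+DFMO against Aβ. The 10 astrocyte markers summed to 128940 units in Aβ+DFMO, 162438 in Aβ and 162725 in Control, and 4 of them fell against Aβ in the authors' DESeq2 table: Gfap (−0.47), Aldoc (−0.99), Aldh1l1 (−0.68) and Fgfr3 (−0.48). The 7 oligodendrocyte lineage markers summed to 23081 units in Aβ+DFMO, 40728 in Aβ and 41304 in Control. Of these, 6 fell in the authors' DESeq2 table, among them Sox10 (−1.82), Mbp (−1.57), Olig1 (−0.90), Cnp (−0.71) and Olig2 (−0.65). The 8 microglial markers summed to 5303 units in Aβ+DFMO, 7167 in Aβ and 12754 in Control. One of them, C1qa, fell in Aβ+DFMO against Aβ (−0.99), and 4 fell in Aβ against Control, C1qa (−0.62), Csf1r (−0.80), P2ry12 (−1.37) and Tmem119 (−1.33), in the authors' DESeq2 table. With the GC trend taken out, 3 astrocyte markers (Aldoc, Aldh1l1 and Slc1a3), 5 oligodendrocyte lineage markers and 0 microglial markers passed downwards in Aβ+DFMO against Aβ, and none of the measured markers of these lists was at 0. None of the other lists named here had a gene that passed in Aβ against Control. The part of these cell types and of the library's low depth in the ratios of the contractile genes was not tested.

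The genes whose pattern was most like that of the 8 were those nearest to their median pair of log2 ratios, 0.42 for Aβ+DFMO over Aβ and 0.02 for Aβ over Control, among 10666 genes at 10 ppm or more of the summed signal. The nearest were Iqcb1 (distance 0.0037 on the log2 scale), Trim68, Gm5812, Gm21926, Gm14586 and Sec23a, whose distance was 0.0079. Likeness here covers 2 ratios from 3 groups. Of these 6 genes, Gm14586 (0.41) and Sec23a (0.42) passed in Aβ+DFMO against Aβ in the authors' DESeq2 table, and the other 4 did not.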

How the data were processed

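RNA was enriched for polyadenylated transcripts and sequenced as paired 75-base reads. The submitters' processing notes name STAR 2.7.3a, Partek, FastQC and DESeq2, and the mm10 and GRCm39 builds, with no role for each. No counter, annotation or filter is named in the sources used here. The authors deposited 1 DESeq2 table of 18783 genes; per the file headers it holds normalized group means (used as a signal), ratios, log2 ratios, p-values and adjusted p-values. The deposited ratio and log2 ratio equalled the ratio of the means, and the adjusted p-values equalled Benjamini-Hochberg values over all genes. Reads per library come from another deposited file. As only group means were held, no count test was run. Where the labels do not name separate cultures, p-values may reflect technical spread.

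The members and gene lists were chosen with earlier results of these data known. By rule, genes named are the members, their paralogs, the genes of each list called with or without the GC trend (the 4 highest in Control where none was called) and the 6 genes of nearest pattern. Des, Srf, Myocd, Gm48529 and Pcsk7 fall outside this rule and were chosen after their values were seen; 1 called marker gene is not reported here. A gene was called at an adjusted p under 0.05. Intervals are at 95% and rest on a standard error implied by the authors' log2 ratio and p-value. GC content, length and overlaps came from GENCODE M21 on GRCm38, taken over coding transcripts where a gene has any; promoter sequences came from RefSeq. The GC trend was a lowess curve (fraction 0.3) over genes at 200 units or more in Aβ. Its removal was also run on simulated ratios with a straight trend and noise of the implied standard errors. That run cannot speak to a curved trend or to extra spread in the lone library. Python 3.11.15, pandas 2.3.3, numpy 2.4.6, scipy 1.17.1 and statsmodels 0.14.6 were used.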

Additional observations from a re-analysis of the deposited data

How the results depend on the processing

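The number of contractile genes higher in Aβ+DFMO than in Aβ was 6, and between 5 and 7 under the alternatives run; none was called for Aβ against Control under any of them. With the GC trend taken out, the median log2 ratio of the 8 genes moved to 0.62 for Aβ+DFMO over Aβ (0.42 without that step) and to 0.64 for Aβ+DFMO over Control (0.41 without it). With GC content read from the longest coding transcript, an alternative chosen after seeing the data, these medians were 0.61 and 0.64. Cnn1 passed with the GC trend taken out (0.38), and Acta2 no longer passed at an adjusted p under 0.01. Adjusting over fewer genes, recentring and rescaling kept the direction and the side of the threshold of the 6 genes, and added constants of 1 and 10 units moved the medians by less than the implied standard error. No paired analysis was possible because the values per gene are group means. For the same reason leaving out each library in turn, the replicate block and size factors against TMM were not run. In Aβ against Control, 324 of 18783 p-values were under 0.05, fewer than an even spread would give, so the implied errors of that comparison may be overstated. In Aβ+DFMO against Aβ the number was 3931, so the same cannot be said of its implied errors. The Aβ+DFMO library, of 4825677 reads, limits the precision of Myh11 most, at an estimated 47.9 reads.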

Other observations

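The striated muscle relatives of the contractile genes had few reads in the Aβ+DFMO library. Of 14 listed, 9 were measured, and none passed in either comparison in the authors' DESeq2 table, where 0 also had an unadjusted p under 0.05. Over all genes, 9.18% passed in Aβ+DFMO against Aβ and 0.287% in Aβ against Control. All 9 rested on about 10 estimated reads or fewer in Aβ+DFMO, so the lack of calls is not read as a result. Acta1, the skeletal muscle α-actin, had the highest level, at 74.5 units in Aβ+DFMO, 53.3 in Aβ and 46.7 in Control, followed by Myl4, an atrial light chain, at 44.7 in Aβ+DFMO, 41.3 in Aβ and 44.1 in Control. The troponin genes Tnnt1 and Tnni1 had 14.9 and 7.45 units in Aβ+DFMO, 25.4 and 13.3 in Aβ, and 21.5 and 12.1 in Control. Of 7 endothelial markers 5 were measured, 3 of them on fewer than 10 estimated reads in Aβ+DFMO. None of the 5 passed in either comparison in the authors' DESeq2 table, with 1 of them at an unadjusted p under 0.05 in Aβ+DFMO against Aβ. Their sum was 827 units in Aβ+DFMO, 691 in Aβ and 681 in Control, of which Flt1, a receptor of vascular endothelial growth factor, made up 663, 459 and 480 in these groups in the same order. Kdr, another such receptor, had 111.8 units in Aβ+DFMO, 179.7 in Aβ and 160.2 in Control. Esam and Cdh5, of endothelial junctions, had at most 29.8 units in any group.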
